A study of Mus musculus with 3 samples.

Results

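The endothelial cells of mouse heart arteries were described here as 1281 cell barcodes of 61034 that passed the quality limits, in 3 single-cell RNA sequencing libraries of the left ventricle. A barcode was kept when it held at least 500 unique molecular identifiers (UMIs, 1 for each captured transcript), at least 300 genes and at most 50% of UMIs from mitochondrial genes. A kept barcode was called vascular endothelial when Pecam1, Cdh5 and Egfl7 together gave at least 3 UMIs and transcripts of other cell types stayed low. These limits were at most 1 UMI for endocardium (Npr3, Cytl1), 0 for lymphatic vessels (Mmrn1, Prox1), 5 for fibroblasts (Col1a1, Col3a1), 1 for mural cells (Myh11, Kcnj8) and 1 for leukocytes (Ptprc). It was called arterial when Sema3g, Gja5 and Stmn2 together gave at least 3 UMIs. There were 517 members in the Control library, 504 in the HFpEF-scr library and 260 in the HFpEF-FoxO1-sh library, out of 1872, 1893 and 1170 vascular endothelial barcodes. Members were thus selected on the measured UMIs of the rule's genes, and what these genes show in members follows from the rule. Below, 3 values in a row follow the order Control, HFpEF-scr, HFpEF-FoxO1-sh.

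The study modelled heart failure with preserved ejection fraction (HFpEF) in C56Bl6 mice and lowered the transcription factor FoxO1 with a virus-delivered hairpin. Control mice had a standard diet for 10 weeks, and their label names no vector. HFpEF-scr mice had 6 weeks of a high-fat diet with L-NAME, which blocks nitric oxide synthesis, and an adeno-associated virus with a scrambled hairpin for 4 weeks. HFpEF-FoxO1-sh mice had the same diet and a virus with a hairpin against FoxO1 for the same 4 weeks. Each group was 1 library made from 4 pooled samples, so no test between groups was possible and every comparison is between libraries. Diet and vector both differ between HFpEF-scr and Control, and their parts cannot be told apart. Which cells take up the vector is not stated in the labels. Ventricles were digested with enzymes, and a 70 µm strainer, debris removal and red cell lysis preceded capture, so the suspension was not meant to hold cardiomyocytes.

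Arterial endothelium lines the vessels that carry blood from the coronary arteries towards the capillaries, where it meets high flow and pulsing pressure. Its identity depends on VEGF and Notch signalling and on SoxF transcription factors such as Sox17, and it differs from capillary endothelium in its matrix, its connexin junctions and its handling of lipids. It also sets vessel tone through nitric oxide and endothelin.

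Members made up 27.6% (95% exact binomial interval 25.6 to 29.7%), 26.6% (24.6 to 28.7%) and 22.2% (19.9 to 24.7%) of vascular endothelial barcodes. The share in HFpEF-scr was 0.964 times that of Control (0.851 to 1.09), and the share in HFpEF-FoxO1-sh was 0.835 times that of HFpEF-scr (0.716 to 0.971). With a mitochondrial limit of 20% the shares were 41.6%, 43.2% and 37.2%, so the order of Control and HFpEF-scr turned and HFpEF-FoxO1-sh was again the lowest. All intervals here cover counting error only, and neither differences between animals nor the sampling of cells within a pool. Of all kept barcodes, members were 2.66%, 2.37% and 1.28%. A further 358, 417 and 265 vascular endothelial barcodes held 1 or 2 UMIs of the arterial genes and stood between the groups, and 997, 972 and 645 held none and are called other vascular endothelium below.

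The members were deeper than the other vascular endothelium, with median UMI counts of 6324, 6487 and 6361 against 4985, 4456 and 4099. Their median mitochondrial share was 27.7%, 22.9% and 20.9%, and 79.3%, 63.1% and 54.6% of them lay above 20%. The mitochondrial share therefore moved with the group, and values with a limit of 20% are given beside the comparisons. No barcode sequence was shared between members of different libraries, against 238 to 335 shared among all barcodes of each pair of libraries. Members were so small a part of all barcodes that nothing is read from this. Levels are given below as CPM, the UMIs of a gene per 1000000 non-mitochondrial UMIs summed over the barcodes of a set.

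The promoters of 3 genes are printed because Rbp7 is a marker of this cell type that the rule did not use, and Fbln5 and Gja4 led the genes higher in members than in other vascular endothelium. Each is the 250 bases before the RefSeq transcription start (GRCm38.p6, the build of mm10), read 5′ to 3′ on the gene's strand, and capitals mark the core letters TGGGAA, or TTCCCA on the other strand, of the motif bound by RBPJ, the DNA-binding partner of Notch.
Rbp7, chr4:149454969-149455218, minus strand: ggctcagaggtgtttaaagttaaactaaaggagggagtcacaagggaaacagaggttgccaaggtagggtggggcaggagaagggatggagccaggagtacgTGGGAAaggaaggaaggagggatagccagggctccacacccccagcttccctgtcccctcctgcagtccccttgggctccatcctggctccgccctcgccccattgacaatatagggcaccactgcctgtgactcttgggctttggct
Fbln5, chr12:101819120-101819369, minus strand: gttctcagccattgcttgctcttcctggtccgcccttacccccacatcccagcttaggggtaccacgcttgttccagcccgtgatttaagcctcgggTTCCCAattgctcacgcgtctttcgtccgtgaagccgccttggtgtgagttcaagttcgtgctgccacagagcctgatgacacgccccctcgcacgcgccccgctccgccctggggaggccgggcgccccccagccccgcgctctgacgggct
Gja4, chr4:127314040-127314289, minus strand: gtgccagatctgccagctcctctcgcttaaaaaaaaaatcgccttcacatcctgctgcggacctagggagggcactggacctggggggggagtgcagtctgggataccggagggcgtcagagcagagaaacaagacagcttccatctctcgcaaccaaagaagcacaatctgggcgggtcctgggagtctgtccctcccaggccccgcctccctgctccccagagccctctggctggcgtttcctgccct
The letters began 148 bases before the start of Rbp7 and 153 bases before that of Fbln5, for which the table holds 2 starts and the first is shown, and were not in the window of Gja4. Of 26 genes on the list of arterial identity, 20 had an entry, and 5 of these (25%) held TGGGAA on either strand, against 24.1% of 27025 genes in the table. The longer GTGGGAA, which contains it, was in 5% against 6.18%, the forkhead letters TGTTTAC in 5% against 3.54%, the SOX letters ACAAAG in 15% against 18.6% and the ETS letters CAGGAAG in 20% against 12.1%. The share of arterial identity genes with the RBPJ letters was thus close to that of all genes. In all, 10 motifs were searched on both strands, and a match is a description of letters, not of binding.

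Markers given for this cell type and not used by the rule, Sox17 and Rbp7, were high in members of every library. Because members were selected on other arterial genes, this describes them and is not an independent check of the label. Sox17, an arterial transcription factor (chr1:4490931-4497354, mm10), reached 374.5 (95% exact Poisson interval 352 to 398), 408 (384 to 433) and 427 CPM (394 to 462), against 95.9, 110 and 106 CPM in other vascular endothelium. Rbp7, a retinol-binding protein of endothelium (chr4:149449687-149454978), was at 1266, 1658 and 1428 CPM in members, against 351, 724 and 461. For both genes every member value stood above every other value. The libraries lay close together for Sox17, and for Rbp7 HFpEF-scr was the highest in both sets.

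A Sox17 UMI was found in 70.7%, 74.6% and 71.2% of members and in 26.1%, 27.3% and 23.8% of other vascular endothelial barcodes. After each barcode was thinned to 1000 UMIs, with 1 member and 5, 10 and 6 other vascular barcodes too shallow to enter, the shares were 23.6%, 28.4% and 28.8% against 6.35%, 7.8% and 7.04%. Fibroblast barcodes, which should lack Sox17 and had median depths of 6786, 6466 and 6943 UMIs, held a Sox17 UMI in 0.0437%, 0.0982% and 0.0558%. For Rbp7 the shares of members were 86.6%, 87.5% and 80.8%, and 51.2%, 56.9% and 51.9% when thinned, against 0.252%, 0.255% and 0.195% of fibroblasts. Both markers were thus far above their level in these fibroblasts. The fibroblast barcodes were chosen with no UMI of Pecam1, Cdh5, Egfl7 or Ptprc. That choice can leave out barcodes with endothelial free RNA, so these shares do not measure its level.

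Across 7519 genes with at least 50 UMIs over both sides in every library, 344 (4.58%) were at least 1.5 times as high in members as in other vascular endothelium with an interval that left out 1, in each of the 3 libraries, and 167 (2.22%) were as much lower (6.8% either way). Since the rule made this contrast, the counts and levels in this section describe the members and nothing is read from them as a test. Of 25 measured genes of arterial identity, 20 were higher and none was lower, with a median log2 ratio of 1.57 against 0.06 over all genes. Higher members were Sox17, Rbp7, Hey1, Efnb2, Jag1, Notch1, Gja4, Vegfc, Fbln5, Mecom, Unc5b, Nebl, Alpl, Ltbp4, Tm4sf1, Clu, Tsc22d1, Acvrl1, Slc6a6 and Tmem100. Dll4, Notch4, Cxcl12, Mgll and Nrp1 did not pass the rule, and none of the 9 measured pan-endothelial genes did.

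The genes that stood furthest apart were Fbln5 and Gja4. Fbln5, which encodes the elastic fibre protein fibulin 5, was at 353, 512 and 423 CPM in members, against 13, 21.1 and 15.8 CPM in other vascular endothelium. Gja4, the gap junction protein connexin 37, was at 149, 170 and 153 CPM against 6.5, 5.22 and 5.84. The ratios were 27.1, 24.2 and 26.7 for Fbln5 and 22.9, 32.5 and 26.3 for Gja4, and Fbln5 was also high in fibroblasts, at 369, 403 and 373 CPM. Next in rank came Pcsk5, a proprotein convertase, at 79.6, 108 and 77.4 CPM against 3.02, 4.97 and 2.09. Of 13 measured genes of connexins, junctions and barrier, Gja4 alone was higher and 2 were lower, with a median log2 ratio of -0.03. Of 14 measured genes of elastic fibre and arterial matrix, 8 were higher and 2 (Emilin1, Sparcl1) lower. Elastin itself, Eln, was at 71.4, 88.5 and 90.5 CPM against 12.8, 13.7 and 15.8, and Ltbp4, which binds latent TGF-beta to elastic fibres, at 1441, 1504 and 1355 against 667, 707 and 604.

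Among basement membrane genes, 7 of 17 were higher and 3 lower. Col8a1, a short-chain collagen, was at 135, 190 and 202 CPM in members against 8.13, 15.2 and 15, and fibronectin, Fn1, at 433, 499 and 461 against 37.8, 47 and 32.5. Col15a1, Lama4 and Lamb1 were the lower ones, Col15a1 with 52.2, 107 and 44.2 CPM against 132, 187 and 135. The members thus differed in which collagens and laminins they carried and not in a common direction.

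Notch signalling runs from a ligand on one cell to a receptor on the next and on to the Hey and Hes repressors. The ligand Jag1 was at 162, 232 and 212 CPM in members against 26.5, 35.5 and 40.5, while Dll4, the other arterial ligand, was at 143, 137 and 129 against 104, 96.7 and 80.9 and did not pass. The receptor Notch1 was at 440, 463 and 387 against 228, 248 and 197, and Notch4 at 125, 113 and 97.4 against 105, 87 and 91.3. The target Hey1 was at 214, 219 and 196 against 33.4, 35.5 and 27.1. In all, 5 of 16 measured Notch genes were higher and none lower, and one of the 5, Notch3, is a mural cell receptor whose UMIs came from barcodes rich in Rgs5, as given further on.

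Genes that respond to flow and set tone followed. Of 19 measured shear-stress genes, 6 were higher in members (Klf2, Klf4, Edn1, Timp3, Smad6, Smad7) and 1 lower (Aqp1). Edn1, the vasoconstrictor endothelin 1, was at 279, 232 and 388 CPM against 39, 26.1 and 32.5, and Ace, which makes angiotensin II, at 74.4, 69 and 69.1 against 11.4, 11.2 and 7.09. Trpv4, a calcium channel of endothelium, was at 51.8, 65 and 58 against 7.89, 9.94 and 9.59. Nos3, the endothelial nitric oxide synthase, was at 162, 166 and 144 CPM against 124, 136 and 120 and did not pass. Tone genes did not go one way as lists. Of 13 measured endothelin and prostanoid genes, 3 were higher and 2 lower. Their median log2 ratio was -0.22, with 4 above 0 and 9 below. Of 20 nitric oxide and cGMP genes, 3 were higher and 2 lower, with a median of 0.15. Endothelin was therefore far higher in arterial barcodes in every library, and nitric oxide synthase was carried at like levels in both sets.

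Capillary genes ran the other way, with 6 of 14 lower, 1 higher (Btnl9) and 7 not past the rule. Aqp1, a water channel, was at 352, 233 and 295 CPM in members against 1871, 1176 and 1549, and Car4, a carbonic anhydrase, at 113, 80.8 and 124 against 288, 266 and 321. Gpihbp1, which holds lipoprotein lipase on the capillary wall, was at 1293, 1066 and 1125 against 2225, 2174 and 2191. Of 26 measured genes of fatty acid handling, 5 were lower (Fabp5, Gpihbp1, Lpl, Angptl4, Acsl1) and none higher. Cd36, the fatty acid translocase, stayed abundant in members at 4562, 6575 and 5359 CPM against 5333, 7607 and 6484. The apelin system was low in members as well: Apln was at 9.02, 9.18 and 4.14 CPM against 86.6, 90.2 and 81.3, and its receptor Aplnr at 67.6, 88.5 and 62.2 against 242, 251 and 220. Venous genes were not lower in members. Of 4 measured, none passed the rule either way, and all 4 were above 0 with a median log2 ratio of 0.48. Vwf, one of them, had log2 ratios of -0.14, 0.89 and 1.29.

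**Figure D1:**
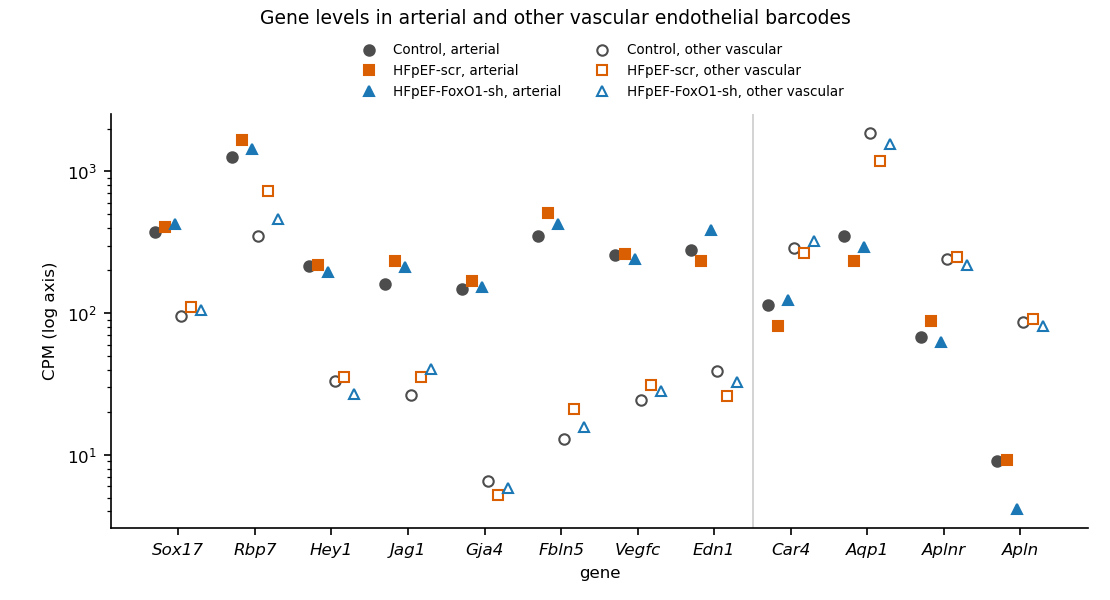
CPM (log axis) of 8 genes higher in arterial endothelium and 4 lower, in the 3 libraries, with filled symbols for members and open symbols for other vascular endothelium. For Sox17 the filled symbols lie between 374.5 and 427 CPM and the open ones between 95.9 and 110, and for Aqp1 the order is turned.

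The 3 arterial genes of the rule met it in different combinations, given here as a description of the choice. Stmn2, a microtubule regulator, was detected in 98.3%, 97.8% and 99.2% of members, so Sema3g and Gja5 rarely brought in a barcode alone. Stmn2 was the only one of the 3 detected in 29.6%, 23% and 32.3% of members, and all 3 were detected in 22.4%, 26.8% and 21.9%. Sema3g, a secreted semaphorin, was found in 65.4%, 74.8% and 63.1%, and Gja5, the connexin 40 of arteries and conduction cells, in 28.4%, 29.4% and 26.5%. The comparisons inside the member set below were chosen after their values were seen and are descriptions.

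Members with a Sema3g UMI differed from those without by 71 genes higher and 36 lower in every library, of 4667 with enough UMIs. S100a4, a calcium-binding protein, was at 93.1 against 19.8 CPM, 186 against 34.8 and 229 against 11.1. Edn1 was at 356 against 118, 287 against 76.7 and 552 against 111, and Fbln5 at 447 against 155, 645 against 141 and 611 against 106. Sox17 was at 450 against 215, 480 against 206 and 514 against 280 CPM. Even without Sema3g, members thus stood above the 95.9, 110 and 106 CPM of other vascular endothelium. On the lower side, Igfbp5 was at 13.3 against 383, 15 against 439 and 35.2 against 586 CPM, and Aqp1 at 154 against 771, 74.3 against 677 and 57.2 against 696. Nr2f2, the venous transcription factor COUP-TFII, was at 18.8 against 46.7, 19.9 against 112 and 30.8 against 83.5. Not all such genes followed: Btnl9, a capillary gene, was higher with Sema3g at 919 against 672, 1263 against 805 and 1081 against 983, and Cd36 in Control was at 4552 against 4583. Members that lacked Sema3g thus carried less Sox17 and Fbln5 and more Aqp1 and Nr2f2 in each library, which goes against the arterial label in part. Members with Sema3g also carried more of some mural transcripts. Rgs5, a pericyte gene, was at 981 against 851, 1032 against 322 and 1509 against 416 CPM. Acta2 was at 32.7 against 19.8, 57.8 against 8.36 and 99 against 3.71. Notch3 was lower with Sema3g in Control, at 28.3 against 38.5, and higher in HFpEF-scr and HFpEF-FoxO1-sh. The part of mural transcripts in this split was not tested.

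Gja5 drew a narrower line, with 54 genes higher and 42 lower in every library where it was detected. The secreted protease Htra1 was at 172 against 43.5 CPM, 184 against 48.4 and 196 against 56.5. Ace was at 151 against 44.1, 131 against 44.9 and 121 against 48.9, and Eln at 138 against 45.1, 153 against 63.2 and 146 against 69. Aqp1 was at 55.6 CPM against 470 in Control, and Lpl, lipoprotein lipase, was at 194 against 470, 193 against 458 and 228 against 489. Matrix genes did not go one way, since Col15a1 was at 13.2 against 67.7, 27.5 against 138 and 17.3 against 54.6. Btnl9 in HFpEF-FoxO1-sh was at 1209 against 981, so neither did capillary genes. Rgs5 was higher where Gja5 was detected too, at 1803 against 597, 1059 against 762 and 2058 against 732 CPM.

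The rule's threshold cut through a gradient. Just outside it, the 128, 156 and 92 barcodes with 2 UMIs of the arterial genes had Sox17 at 218, 241 and 215 CPM, and just inside, the 120, 84 and 50 barcodes with 3 UMIs had 242, 262 and 262. Rbp7 was at 765, 1344 and 909 CPM just outside and 963, 1235 and 1580 just inside. In Control, Sox17 went from 95.9 CPM with no arterial UMI to 568 with 10 or more, Fbln5 from 13 to 690 and Gja4 from 6.5 to 260, while Aqp1 went from 1871 to 19.1 and Car4 from 288 to 25.5. Depth went up along the same steps, from a median of 4985 to 7527 UMIs, and its part was not tested.

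**Figure D2:**
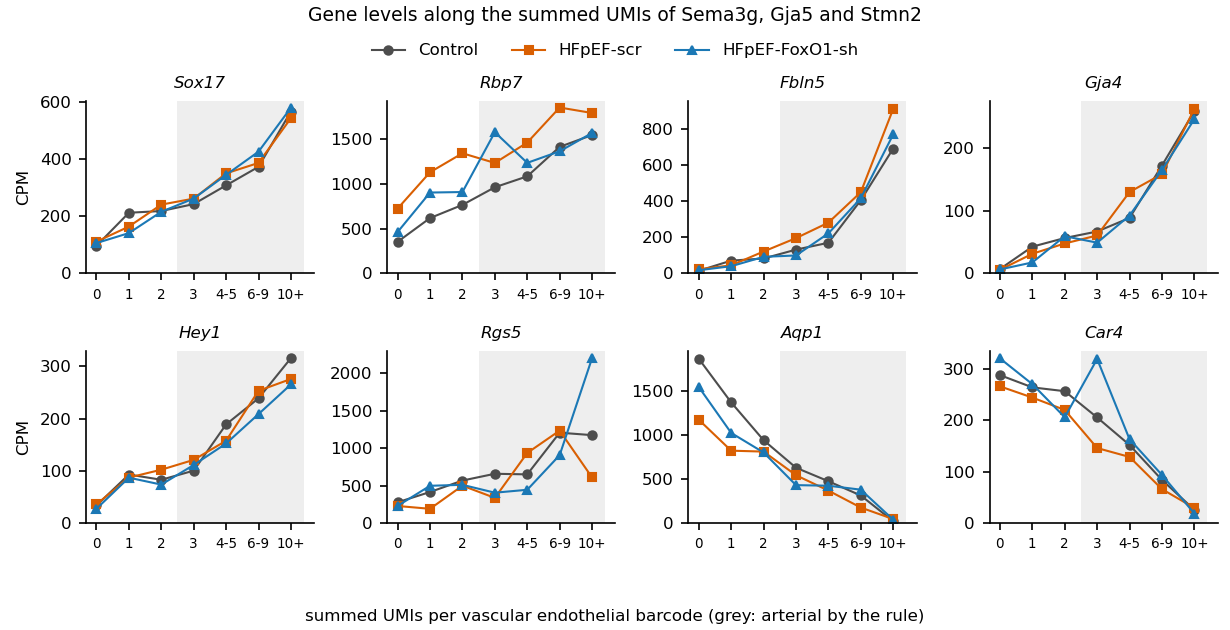
CPM of 8 genes against the summed UMIs of Sema3g, Gja5 and Stmn2 per vascular endothelial barcode, 1 line for each library, with members on grey. Fbln5 climbs through the threshold in each library, as does Gja4 except in HFpEF-FoxO1-sh, where it is at 59.2 CPM with 2 UMIs and 48.8 with 3. Aqp1 declines from 1871 to 19.1 CPM in Control, and Rgs5 in HFpEF-FoxO1-sh ends at 2203.

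Transcripts of mural cells were found in some members. The summed CPM of 8 pericyte genes was 1068, 958 and 1268 in members against 304, 259 and 267 in other vascular endothelium, with none of the 8 at 0 in any library, and Rgs5 alone gave 939, 845 and 1102 CPM. The sum of 7 smooth muscle genes was 176, 209 and 316 CPM, with 1 of the 7 at 0 in HFpEF-FoxO1-sh. At least 3 Rgs5 UMIs were held by 81, 74 and 50 members, 15.7%, 14.7% and 19.2%. In these, Notch3 was at 176, 192 and 224 CPM against 0.457, 0 and 0.874 in the rest, Ndufa4l2 at 320, 295 and 263 against 4.11, 3.08 and 0.874, and Acta2, smooth muscle actin, at 138, 248 and 289 against 5.02, 4.83 and 3.5. Nr2f2 was higher in them as well, at 74.2, 91.5 and 85.5 CPM against 17.8, 34.7 and 41.1. Sox17 was at 422, 440 and 454 CPM in them against 364, 402 and 420, and Pecam1 at 1039, 913 and 924 against 1015, 1064 and 1021, so they carried endothelial and mural transcripts together. Their median doublet score was 0.0436, 0.038 and 0.0527 against 0.0256, 0.03 and 0.0377, and the doublet caller marked 6, 8 and 4 members in all (1.16%, 1.59% and 1.54%).

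**Figure D3:**
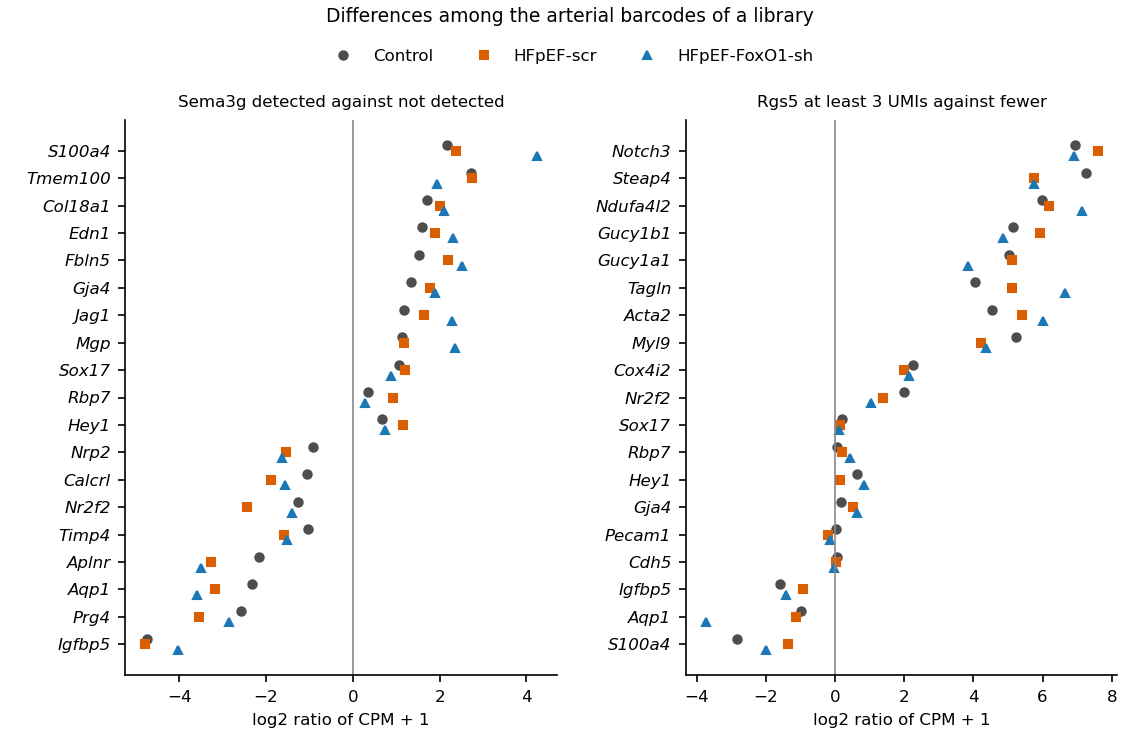
Log2 ratio of CPM + 1 within members, with and without a Sema3g UMI (left) and with at least 3 Rgs5 UMIs against fewer (right), 1 symbol for each library. Arterial genes sit right of 0 and Aqp1, Prg4 and Igfbp5 left of it in the left panel; on the right, Notch3, Steap4 and Ndufa4l2 stand apart while Sox17, Pecam1 and Cdh5 lie near 0.

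The other transcripts foreign to endothelium were given by their sums. Erythrocyte genes, 5 haemoglobin and related genes, summed to 26531, 15411 and 10566 CPM in members, and macrophage genes (6) to 162, 201 and 294, cardiomyocyte genes (8) to 349, 265 and 309 and fibroblast genes (8) to 335, 238 and 189. The defining fibroblast genes were limited by the rule. Neutrophil genes (3) were all at 0 in HFpEF-FoxO1-sh. Haemoglobin UMIs sat in few barcodes. In HFpEF-FoxO1-sh the top barcode of each gene held 44.1% of Hbb-bt, 48.7% of Hba-a1 and 51.3% of Hba-a2 UMIs. For Hbb-bt this share was 13.5% in Control and 17% in HFpEF-scr.

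HFpEF-scr was compared with Control to ask what the diet with L-NAME, together with the vector, left in arterial endothelium. Of 8318 genes with at least 50 UMIs over both libraries, 293 (3.52%) had a CPM ratio of at least 1.5 either way with an interval that left out 1. There were 194 genes (2.33%) on the higher side and 99 (1.19%) on the lower, so 66.2% of them were higher, and 83.6% (300 higher, 59 lower) when CPM was taken over all UMIs including the mitochondrial. In other vascular endothelium 323 of 9259 genes (3.49%) passed, 148 (1.6%) higher and 175 (1.89%) lower. With the mitochondrial limit at 20%, 51 of the 194 and 15 of the 99 genes were past the rule, and 189 and 97 had the same direction. With 1 library a group these counts describe the libraries and do not separate the groups from the spread between animals.

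Of 26 measured genes of arterial identity, 1 was past the rule (Tmem100, higher), a share near the 3.52% of all genes, with a median log2 ratio of 0.06 against 0.01 over all genes. Sox17 had a ratio of 1.09 (0.999 to 1.19), Hey1 of 1.02 (0.908 to 1.15), Gja4 of 1.14 (0.992 to 1.3) and Rbp7 of 1.31 (1.25 to 1.37). None of 17 Notch genes passed, and none of 34 nuclear genes of oxidative phosphorylation. Tmem100, a membrane protein downstream of BMP signals, was at 20.7, 40.8 and 48.4 CPM (ratio of HFpEF-scr to Control 1.97, 1.42 to 2.78).

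The retinoic acid hydroxylase Cyp26b1 (chr6:84571414-84593908) gave the lowest ratio. It was at 178 CPM (475 UMIs), 24.6 (67 UMIs) and 32.5 (47 UMIs), a ratio of 0.138 for HFpEF-scr (0.105 to 0.178). Control alone was high, and its interval of 163 to 195 CPM lay far from the others. The same was found in other vascular endothelium, at 395, 55.7 and 92.2 CPM with a ratio of 0.141. Rara, the retinoic acid receptor alpha, was higher at 19.2, 32.7 and 24.2 CPM (1.71, 1.2 to 2.46), and these 2 were the only genes past the rule among 10 measured retinoid genes.

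Angptl4, a gene of fatty acid handling, had the highest ratio among genes past the rule with UMIs in at least 10% of barcodes of the higher library and no barcode holding over 20% of them. The 12 highest and 12 lowest genes below were ranked within this set. Angptl4 (chr17:33773750-33781830), a secreted inhibitor of lipoprotein lipase and a PPAR target, was at 10.1, 35.6 and 30.4 CPM. Its ratio of HFpEF-scr to Control was 3.51 (2.27 to 5.6), and in other vascular endothelium it was 2.78. Cpt1a, which carries fatty acids into mitochondria, was at 40.6, 64.6 and 56.6 CPM (1.59, 1.25 to 2.04), with 1.57 in other vascular endothelium. They were the only genes past the rule among 29 measured genes of fatty acid handling, whose median log2 ratio was 0.01, and Cd36 came near with a ratio of 1.44 (1.41 to 1.47). Oxct1, which lets cells burn ketone bodies, was at 42.1, 21.7 and 35.9 CPM (0.515, 0.369 to 0.712), and at 43.9, 26.1 and 43.4 in other vascular endothelium.

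Some venous and inflammatory genes were higher in HFpEF-scr members. Vwf, von Willebrand factor (chr6:125546774-125686679), was at 39.4, 87.7 and 61.5 CPM, a ratio of 2.22 (1.76 to 2.83), against 1.08 in other vascular endothelium. Vcam1, a leukocyte adhesion molecule, was at 37.9, 79.3 and 59.4 CPM (2.09, 1.64 to 2.67), and Nr2f2 at 27.8, 44.1 and 50.4 (1.58, 1.18 to 2.15). These were 3 of the 4 measured venous genes, against 2.33% of all genes higher. Vcam1 was also 1 of 4 higher among 22 genes of adhesion and inflammation, with Cxcl1, Nfkbia and Tnfaip2. Endocardial barcodes, with at least 3 UMIs of Npr3 and Cytl1, had far more of both Vwf and Vcam1. There Vwf was at 1254, 1314 and 1904 CPM and Vcam1 at 677, 774 and 735. The part of endocardial transcripts in the member values was not tested. In HFpEF-scr members with a Sema3g UMI, Vwf was at 57.3 CPM and Vcam1 at 51.3, against 173 and 157 in members without, while in Control Vwf was at 40.4 with and 37.3 without. Among members with Sema3g or Gja5, neither passed the rule, with log2 ratios of 0.47 and 0.41. Nr2f2 was not higher in HFpEF-scr there, at 20.9 CPM in Control and 19.9 in HFpEF-scr. In members without either gene it was at 45.6 and 118 CPM. Prg4, lubricin, was at 27.4, 67.6 and 53.2 CPM (2.46, 1.87 to 3.28) over all members, and it did not pass among members with Sema3g or Gja5 (log2 ratio 0.80). Unlike Vwf, it was lower with a Sema3g UMI in Control too, at 9.97 CPM against 64.1 without.

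Genes of the quick response to stimuli had 7 of 25 higher and none lower, with a median log2 ratio of 0.25, against 2.33% of all genes higher. In other vascular endothelium 3 of 24 such genes were higher and none lower, against 1.6% of all genes higher. Egr1, an early transcription factor, was at 251, 399 and 340 CPM (1.59, 1.45 to 1.76) and the nuclear receptor Nr4a1 at 44.7, 88.1 and 73.2 (1.97, 1.58 to 2.48). Apold1, an endothelial early gene, was at 121, 207 and 133 CPM (1.7, 1.48 to 1.96), and in other vascular endothelium its ratio was 2.23. Fos and Junb did not pass, with ratios of 1.19 and 1.06. Glucocorticoid targets had 4 of 16 higher (Per1, Zbtb16, Ddit4, Angptl4), against the same 2.33% of all genes.

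Matrix genes added Col15a1, a basement membrane collagen (chr4:47208161-47313167), at 52.2, 107 and 44.2 CPM (2.05, 1.67 to 2.52), and Col18a1, the endostatin precursor, at 87.9, 137 and 111 (1.56, 1.32 to 1.84). With Npnt they were the 3 higher genes of 18 measured in the basement membrane, against 2.33% of all genes, and none was lower. Eln had a ratio of 1.24 (1.02 to 1.51) and Fbln5 of 1.45 (1.34 to 1.58), neither past the rule.

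S100a4 and Casp4 were higher in arterial members of HFpEF-scr and not past the rule in other vascular endothelium, a difference that was not tested. S100a4 was at 69.5, 146 and 148 CPM in members (2.1, 1.76 to 2.52) and at 13.7, 10.4 and 13.3 in other vascular endothelium. Casp4, an inflammatory caspase, was at 15.8, 37.8 and 28.3 CPM (2.4, 1.66 to 3.52), against 20.9, 16.9 and 26.7. Ifi27l2a, an interferon-induced gene with close copies, was at 56, 167 and 132 CPM (2.98, 2.47 to 3.61), with a ratio of 1.65 in other vascular endothelium, and was the only 1 of 37 interferon genes past the rule. By ratio, Ifi27l2a would be among the highest genes ranked here, but it was not in the ranked set. It thus missed the limit on the share of barcodes with UMIs, on the share of UMIs in the top barcode, or both. Its counting interval does not cover a concentration of UMIs in few barcodes. With the mitochondrial limit at 20%, S100a4 did not pass (log2 ratio 0.52).

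Also among the 12 highest were the transcription factor Tcf23 (9.77, 30.5 and 22.8 CPM), Synpo (18.8, 40.8 and 27.6), Pi16 (57.5, 120 and 113), Gdpd1 and Btf3l4. Fibroblasts had far more Pi16, at 908, 1150 and 1109 CPM. They also had more S100a4, at 193, 227 and 214, and more Prg4, at 196, 206 and 204. The part of fibroblast transcripts in the member values of these 3 genes was not tested. On the lower side, Aqp1 was at 352, 233 and 295 CPM (0.662, 0.597 to 0.733). There 3 of 25 genes of the unfolded protein response (Syvn1, Sdf2l1, Creld2) passed, against 1.19% of all genes lower. The haemoglobin genes, whose near-identical copies share reads, were lower as well, Hbb-bt at 2967, 1405 and 1413 CPM (0.474, 0.455 to 0.492). Its UMIs were in 11.2%, 10.3% and 7.69% of members. Among the 12 lowest were also Kank4, the cardiac myosin light chain Myl3 (64.6, 30.5 and 51.1), Scgb3a1, Itgb5, Tspan15, Tubgcp5 and Crat. At the 20% mitochondrial limit Gdpd1 (log2 ratio 1.78) and Btf3l4 (0.87) were not past the rule. Nor were 5 of the 12 lowest, Kank4 (-0.997), Myl3 (-0.22), Scgb3a1 (-0.42), Crat (-0.42) and Tubgcp5 (0.015).

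**Figure D4:**
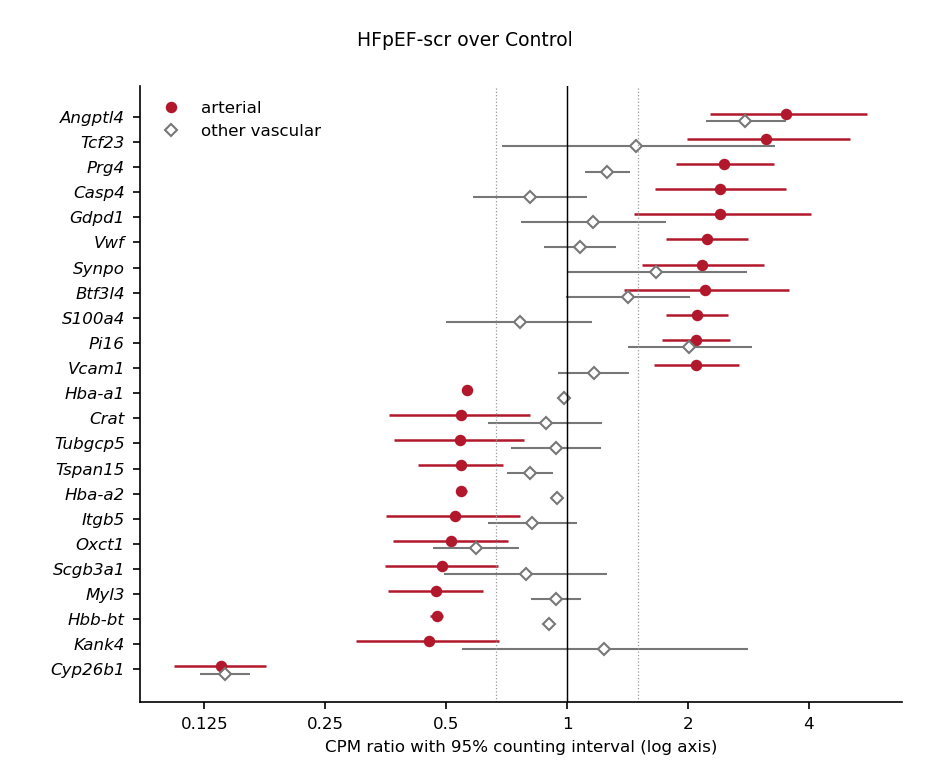
CPM ratio of HFpEF-scr to Control (log axis) with 95% counting intervals for 11 of the 12 highest and the 12 lowest genes, red for members and grey for other vascular endothelium, with dotted lines at 1.5 either way. Cyp26b1 lies at 0.138 and 0.141, while Vwf, S100a4, Casp4 and Vcam1 stand right of the dotted line in members only.

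The comparison of HFpEF-FoxO1-sh with HFpEF-scr asked what the hairpin changed under the same diet, and it shares the HFpEF-scr library with the comparison above. Foxo1, the targeted gene (chr3:52268336-52353221), gave 217, 228 and 90 UMIs in members. Its level was 81.5 CPM (71 to 93.1), 83.7 (73.2 to 95.3) and 62.2 (50 to 76.4). HFpEF-FoxO1-sh was the lowest, at 0.743 times HFpEF-scr (0.575 to 0.952), which is short of the 1.5-fold rule, and the intervals of the levels overlapped. In other vascular endothelium it was at 76.6, 89.7 and 73.4 CPM, a ratio of 0.818. Among members with Sema3g or Gja5, a setting chosen after seeing the data, Foxo1 was at 88.7, 89 and 55.5 CPM. There HFpEF-FoxO1-sh over HFpEF-scr passed the rule (log2 ratio -0.67). Members without either gene had Foxo1 at 63.1, 67.4 and 75.9 CPM, and a difference between these parts was not tested. Foxo3 was at 14.3, 15.8 and 22.1 CPM in members and Foxo4 at 19.9, 23.9 and 16.6. Of 24 measured genes of the FoxO list, Gadd45b was higher and Trib1 lower, against 2.07% of all genes higher and 1.59% lower. The counts allow a ratio as low as 0.575, and protein was not measured.

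Of 7778 genes, 285 (3.66%) were past the rule, 161 (2.07%) higher and 124 (1.59%) lower, against 351 of 8671 (4.05%) in other vascular endothelium. With CPM over all UMIs, 196 were higher and 103 lower. At the 20% mitochondrial limit, 57 of the 161 and 42 of the 124 were past the rule, and 155 and 123 had the same direction. None of 26 arterial identity genes passed, with a median log2 ratio of -0.13. Sox17 had a ratio of 1.05 (0.947 to 1.16), Hey1 of 0.897 (0.776 to 1.03) and Gja4 of 0.904 (0.767 to 1.06). None of 34 genes of oxidative phosphorylation and none of 28 of fatty acid handling passed.

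Mgp, matrix Gla protein, an inhibitor of calcification (chr6:136872435-136875823), had the narrowest interval of the 12 highest genes. It was at 245 CPM (652 UMIs), 213 (581 UMIs) and 430 (622 UMIs), a ratio of 2.01 (1.8 to 2.26). HFpEF-FoxO1-sh alone was high, and the same held in other vascular endothelium with 117, 79.3 and 211 CPM and a ratio of 2.66. Fibroblasts had far more Mgp, at 6509, 6541 and 5999 CPM. The sum of 8 fibroblast genes was 371, 204 and 622 CPM in other vascular endothelium and 335, 238 and 189 in members, and their part in the Mgp values was not tested. Edn1 (chr13:42301476-42307990) was at 279, 232 and 388 CPM (1.68, 1.49 to 1.88), while the endothelin receptor Ednrb, which clears the peptide, was at 80, 109 and 67.7 (0.623, 0.491 to 0.785). In other vascular endothelium these ratios were 1.25 and 0.758, and neither passed. Nos3 had a ratio of 0.872 (0.736 to 1.03).

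Col15a1 had the narrowest interval of the 12 lowest. From 107 CPM in HFpEF-scr (291 UMIs) it was at 44.2 in HFpEF-FoxO1-sh (64 UMIs), close to the 52.2 of Control, and the ratio was 0.414 (0.311 to 0.544) against 0.722 in other vascular endothelium. Zbtb16, a zinc finger repressor induced by glucocorticoids, was at 25.5, 49.2 and 20.7 CPM (0.421, 0.274 to 0.63), and Dusp8, a phosphatase of stress kinases, at 31.6, 47.7 and 20 (0.42, 0.27 to 0.632). Both stood higher in HFpEF-scr than in either other library. Trib1, a pseudokinase, was at 28.5, 35.2 and 15.9 CPM (0.451, 0.273 to 0.716), and Ntn1, netrin 1, at 18, 33.8 and 15.2 (0.45, 0.269 to 0.723).

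Early response genes split. Atf3, a stress-induced factor, was at 67.2, 58.4 and 116 CPM (1.99, 1.59 to 2.49) and Ier3 at 191, 212 and 325 (1.54, 1.36 to 1.74), while Egr3 was at 12.4, 29.7 and 13.8 (0.465, 0.27 to 0.765) and Apold1 at 121, 207 and 133 (0.642, 0.542 to 0.757). These were 2 higher and 2 lower of 25, against 2.07% and 1.59% of all genes. In other vascular endothelium Atf3 had a ratio of 0.839, and a difference between the sets was not tested. Esm1, a proteoglycan of sprouting endothelium, was at 27.4, 19.8 and 41.4 CPM (2.09, 1.42 to 3.08), and Socs3 at 69.1, 62.8 and 106 (1.69, 1.35 to 2.12). By ratio, Esm1 would be among the highest genes ranked here and Egr3 among the lowest, but neither was in the ranked set. Each thus missed the limit on the share of barcodes with UMIs, on the share of UMIs in the top barcode, or both. Their counting intervals do not cover a concentration of UMIs in few barcodes.

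Mural and macrophage transcripts were higher in HFpEF-FoxO1-sh members too. Tagln was at 28.5, 43 and 98.1 CPM (2.28, 1.78 to 2.94). In all, 3 of 6 pericyte genes (Vtn, Higd1b, Notch3), 2 of 5 smooth muscle genes and 2 of 3 macrophage genes passed. All of these were higher, against 2.07% of all genes. By ratio, Tagln would be among the highest genes ranked here, but like Esm1 it missed the barcode limits of the ranking. The macrophage genes were C1qa, at 36.4, 47.7 and 82.9 CPM, and Lyz2, at 69.9, 94 and 142. With the Rgs5-rich members left out, 144 genes were higher and 144 lower, and of these 88 and 75 were among the 161 and 124. Mgp and Col15a1 stayed past the rule there, with log2 ratios of 1.33 and -1.21.

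The rest of the 12 highest were genes of low count, Pepd, Bloc1s5, Slc35g2, Mrpl46, Atmin, Kctd13, Btbd10, Kank4, Zpr1, Timm8a1 and Gmpr, each at 20 to 40.8 CPM in HFpEF-FoxO1-sh. The remaining lowest were Ing2, Bahd1, Ftsj3, Usp38, Elf4, Ift122 and Usp37. Their intervals were wide, as for Pepd, at 12.4, 8.81 and 21.4 CPM with a ratio of 2.43 (1.38 to 4.33).

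**Figure D5:**
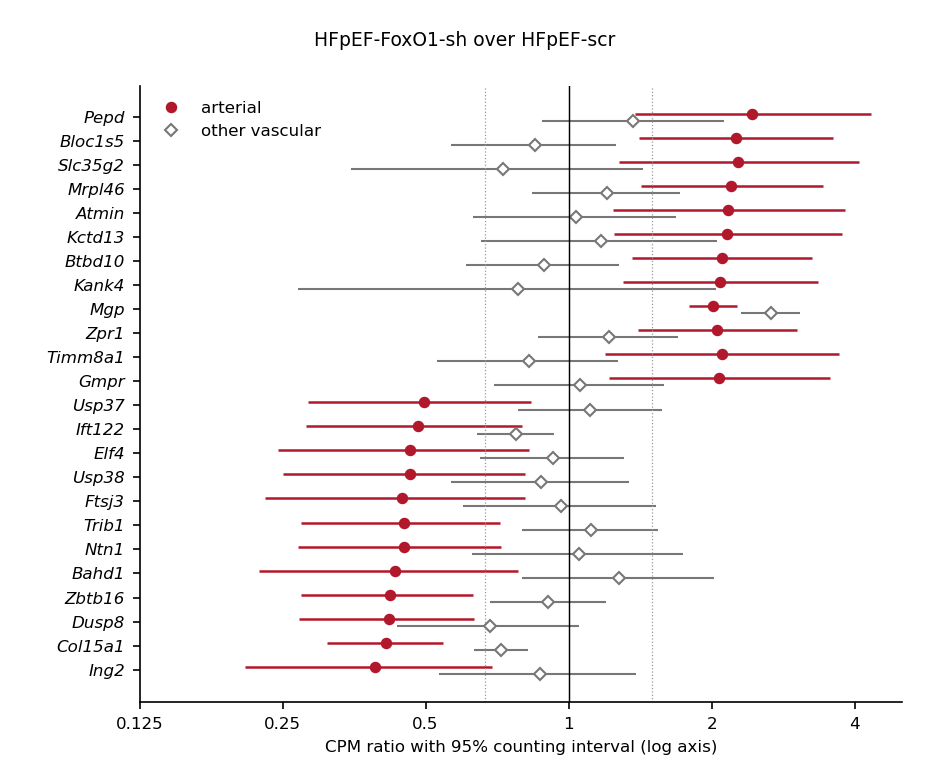
CPM ratio of HFpEF-FoxO1-sh to HFpEF-scr (log axis) with 95% counting intervals for the 12 highest and 12 lowest genes, red for members and grey for other vascular endothelium. Mgp has the narrowest interval and lies right of 1.5 in both sets, and Col15a1 is at 0.414 in members.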

How the data were processed

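The left ventricle libraries were made with the 10x Chromium 3' HT v3.1 chemistry, 1 library from 4 pooled samples in each of 3 groups. The deposited files hold raw UMI counts per gene and barcode. Per the submitters' processing notes, the tool was Cell Ranger 6.1.2 and the build mm10; the annotation release and the barcode filter are not given in the sources used here. The files held 33022, 36179 and 27453 barcodes with 146230530, 154385813 and 144561934 UMIs (order Control, HFpEF-scr, HFpEF-FoxO1-sh) and 30360 genes, of which 13 were mitochondrial.

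Barcodes were chosen by the rule given in the report, and 19409, 21247 and 20378 passed the quality limits. Counts were summed over the barcodes of a set and divided by its non-mitochondrial total (CPM). The log2 ratios used a pseudocount of 1 CPM. A gene was past the rule in a comparison of libraries with at least 50 UMIs over both sides, a CPM ratio of at least 1.5 either way and an exact conditional binomial 95% interval without 1. Levels carry exact Poisson and shares exact Clopper-Pearson 95% intervals, which treat UMIs or barcodes as independent. Fibroblast barcodes held at least 6 UMIs of Col1a1 and Col3a1 and no UMI of Pecam1, Cdh5, Egfl7 or Ptprc. Endocardial barcodes met the vascular endothelial limits except that they held at least 3 UMIs of Npr3 and Cytl1. They also held fewer than 3 UMIs of the arterial genes. With 1 library per group no p-value was computed. The procedure was tested on simulated counts.

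The members and the 42 gene lists were chosen with earlier results of these data known, as were the printed promoters and motifs. Of 732 listed genes, 731 were in the files. The text names list members, the 12 highest and 12 lowest log2 ratios per comparison of libraries (genes past the rule with UMIs in at least 10% of barcodes of the higher library and no barcode holding over 20% of its UMIs), and the 25 highest and 15 lowest genes of members over other vascular endothelium by the smallest ratio over the libraries, without rule genes, mitochondrial, Xist and Y-linked genes. Of the 12 highest for HFpEF-scr over Control, 1 gene is not reported here. Scrublet (in scanpy 1.11.5, expected rate 12%) marked 3.22%, 3.62% and 3.58% of kept barcodes, which were not removed in the main values. Alternatives changed the barcode limits, the arterial rule, doublet removal, scaling, the UMI minimum and the weighting. Gene positions come from GENCODE vM21 on mm10, and promoters from a RefSeq table of GRCm38.p6. Computation used scipy 1.17.1, numpy 2.4.6 and pandas 2.3.3 under Python 3.11.15, and plots matplotlib 3.10.9.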

Additional observations from a re-analysis of the deposited data

Results flagged for a closer look

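In 15 genes the log2 CPM ratio between libraries passed the rule in members and in other vascular endothelium with opposite signs, and the difference between the sets was not tested. Of all measured genes, 3.52% passed in members and 3.49% in other vascular endothelium for HFpEF-scr over Control. For HFpEF-FoxO1-sh over HFpEF-scr these shares were 3.66% and 4.05%. How many genes passed in both sets with the same sign is not given here, so nothing is read from the number 15. For HFpEF-scr over Control, genes of macrophages and other leukocytes were higher in members and lower in other vascular endothelium: Fcer1g at 0.68 and -1.06, Laptm5 at 0.80 and -0.73, Ctsc at 1.13 and -1.14, Maf at 1.13 and -1.15 and Wfdc17 at 1.17 and -1.21. The summed CPM of 6 macrophage genes was 162 and 201 in members of these libraries and 459 and 231 in other vascular endothelium.

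Smooth muscle genes had the same signs, Tagln at 0.57 and -1.28 and Acta2 at 0.63 and -0.91. So had Enpp6 at 0.98 and -0.91, Tmem158 at 0.81 and -0.61 and Hif1an at 0.73 and -0.64. Diexf at -0.82 and 0.67 and Ccdc167 at -0.73 and 0.57 had the reverse.

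For HFpEF-FoxO1-sh over HFpEF-scr, Arhgef11 stood at 0.59 in members and -0.68 in other vascular endothelium, Cdkn2aipnl at 0.73 and -0.57 and Esm1 at 1.03 and -0.60. Esm1 in members missed the barcode limits used to rank genes, as given above.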

How the results depend on the processing

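The arterial share of vascular endothelial barcodes depended on the limits, and HFpEF-FoxO1-sh was lowest in all 9 alternatives, while HFpEF-scr was above Control in 5 and below it in 4. It was 41.6%, 43.2% and 37.2% with a mitochondrial limit of 20% (order Control, HFpEF-scr, HFpEF-FoxO1-sh), 17.5%, 17.7% and 14.1% with at least 5 arterial UMIs, and 19.2%, 20.02% and 14.9% with at least 2 of the 3 arterial genes. It was 19.4%, 20.5% and 15% with Sema3g or Gja5 detected, 25.9%, 25.2% and 19.9% with at most 3 UMIs of Rgs5, Acta2, Tagln and Myl9, and 21.5%, 23.4% and 20.7% after thinning to 1000 UMIs with at least 1 arterial UMI. Counts of genes past the rule for HFpEF-scr over Control and HFpEF-FoxO1-sh over HFpEF-scr, 293 and 285 as reported, were 169 and 155 with at least 100 UMIs per gene, 494 and 490 with no minimum and 593 and 620 with equal weight per barcode. The latter was 449 with no interval. Which genes passed changed more than how many, as the shared counts at the 20% limit show. The ratio of HFpEF-scr to Control turned sign for Tubgcp5 (log2 0.0152 at the 20% limit) and for Foxo1 (-0.0376 at that limit and -0.0186 with the mural limit, against 0.0379), and the cause was not tested.

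Of the genes in the plots of ratios, 10 for HFpEF-scr over Control (Angptl4, Tcf23, Casp4, Synpo, Pi16, Cyp26b1, Hbb-bt, Oxct1, Itgb5, Tspan15) and 5 for HFpEF-FoxO1-sh over HFpEF-scr (Mgp, Col15a1, Dusp8, Zbtb16, Trib1) passed in all 15 alternatives, while Pepd passed in 7. Foxo1 passed in 2 of 15 for HFpEF-FoxO1-sh over HFpEF-scr, among them the setting with Sema3g or Gja5 detected. The settings with Sema3g or Gja5, with fewer than 3 UMIs of Rgs5 and without haemoglobin were chosen after seeing the data. No paired analysis was possible because each group is 1 library. Depth limits HFpEF-FoxO1-sh most, with 260 members and 1447706 non-mitochondrial UMIs.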

Other observations

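Genes of TGF-beta and BMP signalling, which shape the vessel wall, set members apart from other vascular endothelium, and since the rule made this contrast the values are a description. Of 23 measured, 7 were higher in members in every library and 2 (Bmp6, Smad1) lower. The ligand Tgfb2 was at 116, 131 and 194 CPM (order Control, HFpEF-scr, HFpEF-FoxO1-sh), against 6.73, 9.45 and 6.67 in other vascular endothelium, while Tgfb1 was at 139, 163 and 137 against 180, 187 and 152. The receptor Acvrl1 was at 281, 226 and 283 CPM against 160, 132 and 164, and the inhibitory Smad6 at 119, 114 and 148 against 25.5, 36.8 and 30.9. The ligand Bmp6 was at 34.9, 32.3 and 41.4 against 143, 87.3 and 129. Members thus carried the TGF-beta 2 ligand where capillary-rich endothelium carried more Bmp6. Between libraries none of 24 measured genes but Tmem100, higher in HFpEF-scr than in Control, was past the rule, and Tgfb2 came near in HFpEF-FoxO1-sh over HFpEF-scr with a ratio of 1.48 (1.26 to 1.74).

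Other surface and secreted products were also high in members. Cxcr4, the receptor of Cxcl12, was at 148, 128 and 140 CPM against 52.2, 51.7 and 69.7, and Plat, the tissue plasminogen activator, at 148, 179 and 150 against 56.4, 76.6 and 60.9. Entpd1, which breaks down extracellular ATP, was at 107, 122 and 145 CPM against 39.5, 34.3 and 34.2. Nov, a secreted matricellular protein, was at 101, 106 and 62.9 CPM against 2.32, 6.96 and 7.09, and it was past the rule on the lower side in HFpEF-FoxO1-sh over HFpEF-scr (0.59, 0.461 to 0.75).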
